A study of Mus musculus with 18 samples.

Results

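The 3 subunit genes of the epithelial sodium channel ENaC (Scnn1a, Scnn1b and Scnn1g) and 4 genes tied to its control by mineralocorticoid hormone (Hsd11b2, Sgk1, Nedd4l and Tsc22d3) were followed in mouse colon organoids. They were taken by gene name from a table of 56748 genes, and all 7 were found in all 18 libraries. Organoids are epithelial cultures grown from colon tissue, so they hold no hormone-producing gland and no blood supply. RNA carrying a poly-A tail was sequenced from organoids of the proximal, mid and distal colon. Each region was kept either in the control medium, ENR + Wnt3a conditioned medium, in which organoids proliferate, or in a differentiation medium, with the media applied 3 days after passaging. This gave 6 groups of 3 libraries: proximal, mid and distal control, and proximal, mid and distal differentiation. Strain, sex, age and genotype of the mice, and whether either medium contained a steroid hormone, are not given in the sources used here. Replicates are numbered 1 to 3 in each group, and nothing states whether the numbers mark animals or cultures, so p-values measure only the spread between these samples.

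ENaC lets sodium enter epithelial cells from the lumen, and the sodium pump moves it on to the blood. It is built from alpha, beta and gamma subunits, and in the distal colon of rodents aldosterone is known to raise the beta and gamma transcripts in particular. Aldosterone acts through the mineralocorticoid receptor (Nr3c2), which also binds glucocorticoids, and the enzyme HSD11B2 inactivates those glucocorticoids in the same cell. SGK1, a kinase whose gene is induced by the receptor, phosphorylates the ubiquitin ligase NEDD4L and so keeps it from removing ENaC from the cell surface, while GILZ, the product of Tsc22d3, is a steroid-induced protein that promotes ENaC surface expression.

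Promoter windows from RefSeq on GRCm38.p6, each running from 250 bases before to 50 bases after an annotated start, matched 4 of the 7 genes with 11 windows in all. The windows were searched on both strands for the palindrome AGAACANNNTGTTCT, the consensus that glucocorticoid and mineralocorticoid receptors bind as a dimer. It occurred in 3 of 32851 promoter windows (0.0091%), and 1 of those 3 belonged to Sgk1. Its shorter core ACANNNTGT, which lies inside the palindrome, occurred in 6.85% of windows, and the single-receptor site AGAACA, which also overlaps it, in 19.0%. The 250 bases upstream of 3 starts are shown: Sgk1 at the start with the palindrome (capitals), and the neighbouring subunit genes Scnn1g and Scnn1b. The Scnn1g and Scnn1b windows hold none of the 3 motifs. The 3 Tsc22d3 windows hold neither the palindrome nor the core, and 1 of them holds 1 AGAACA site. Of the 11 windows 2 hold the core, both in Sgk1. A relation between motifs and responses was not tested.
Sgk1, chr10:21993640-21993889, plus strand: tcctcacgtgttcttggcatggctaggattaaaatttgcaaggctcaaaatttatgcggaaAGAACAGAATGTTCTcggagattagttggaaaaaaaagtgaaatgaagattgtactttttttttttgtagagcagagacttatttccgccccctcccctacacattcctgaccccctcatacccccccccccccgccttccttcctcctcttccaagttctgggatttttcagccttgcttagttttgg
Scnn1g, chr7:121734229-121734478, plus strand: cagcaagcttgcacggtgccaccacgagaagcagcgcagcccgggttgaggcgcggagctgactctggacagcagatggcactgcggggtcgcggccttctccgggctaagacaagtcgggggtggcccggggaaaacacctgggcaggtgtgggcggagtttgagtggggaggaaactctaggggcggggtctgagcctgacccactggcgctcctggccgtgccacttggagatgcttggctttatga
Scnn1b, chr7:121864788-121865037, plus strand: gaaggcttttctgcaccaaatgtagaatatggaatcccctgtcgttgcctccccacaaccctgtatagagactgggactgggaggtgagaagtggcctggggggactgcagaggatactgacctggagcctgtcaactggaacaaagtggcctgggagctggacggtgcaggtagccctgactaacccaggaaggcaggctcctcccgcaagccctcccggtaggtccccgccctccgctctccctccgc
In the Sgk1 window the match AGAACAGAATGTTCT begins 189 bases upstream of the start. Sgk1 has 6 windows, this being the fifth, and a gene-level value does not separate its starts. A match is a description of letters and not evidence of binding, and these windows leave most of a gene's regulatory sequence unseen.

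Values are FPKM, in which counted fragments are divided by the length of the gene and by a library size, so that levels can be compared between genes per length. Depth was 12827751 to 19938198 recovered reads per library. The library size behind the deposited FPKM moved with the medium, since summed reads were 0.831 to 0.873 of that size in control and 0.959 to 1.32 in differentiation libraries. Scaling to summed reads instead shifted the median log2 difference of all tested genes from about 0 to -0.25 in proximal, -0.33 in mid and -0.34 in distal medium comparisons. All 6 epithelial markers were present, with a summed level of 2115 to 7299 FPKM. Of the fibroblast, immune, endothelial, and muscle and glia markers, 0 reached 1 FPKM in any library, and Col1a2 and Lum had 0 reads in all. Summed levels of the 6 mature colonocyte markers were 294 to 2157 FPKM in control and 13955 to 24570 FPKM in differentiation libraries, and those of the 3 crypt base markers were 25.6 to 35.5 and 0.0935 to 3.89 FPKM. Car1 made up most of the colonocyte sum, and the markers differed by region. In proximal organoids mean Krt20 was 44.0 FPKM in control and 696 in differentiation medium and Guca2a 25.5 and 1250. The water channel gene Aqp8 was 0.276 and 0.400 there. Mean Aqp8 in proximal, mid and distal differentiation libraries was 0.400, 3078 and 4090 FPKM. In the same order Car4 was 0.994, 347 and 235 FPKM, and Slc26a3 31.3, 536 and 555 FPKM. Krt20 was 696, 758 and 656 FPKM, Guca2a 1250, 1368 and 334 FPKM, and Car1 18982, 13418 and 12775 FPKM. Summed goblet cell markers were 5.95 to 42.3 FPKM in control and 446 to 1347 FPKM in differentiation libraries, and enteroendocrine markers 0.869 to 9.73 and 7.93 to 35.6 FPKM. Summed markers of cycling cells overlapped between media in proximal organoids (39.5 to 85.1 and 38.7 to 67.0 FPKM) and were lower in differentiation medium in mid (109 to 140 and 30.1 to 35.03 FPKM) and distal organoids (81.7 to 134 and 26.9 to 63.0 FPKM). In proximal organoids mean Mki67 was 12.8 FPKM in control and 5.10 in differentiation medium, and Top2a 12.6 and 5.43. Of the proximal differentiation reads, 1 library held 2098 of 2550 for Mki67, and 1 held 1933 of 2407 for Top2a. On the first principal component, replicate 1 of the proximal differentiation group stood apart at 5.80, against 44.1 and 37.9 for the other two.

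Differentiation medium raised the alpha subunit in all 3 regions, and far more in mid and distal than in proximal organoids. Hsd11b2 and Nedd4l also rose in all 3 regions, Tsc22d3 in mid and distal organoids, and Sgk1 in mid organoids. Scnn1g was detected mainly in distal and mid differentiation libraries, and Scnn1b was low in all groups, with its highest levels in distal differentiation libraries and in replicate 2 of proximal control. The filter of at least 1 FPKM in at least 3 libraries left 12896 genes and 5 of the 7 members, and Scnn1b and Scnn1g did not pass it. With limma on log2(FPKM + 1) and a Benjamini-Hochberg adjusted p under 0.05, 3 of the 5 tested members were higher in differentiation medium in proximal organoids, where 27.6% of all tested genes were higher and 53.8% were called in either direction. In mid organoids 5 of 5 were higher, against 31.5% of all genes (63.5% in either direction), and in distal organoids 4 of 5, against 31.6% (62.9%). Members called lower numbered 0 in each region, where 26.2%, 32% and 31.3% of all genes were lower. The 7 genes were chosen with earlier results of these data known, so counts beside shares of all genes are descriptions here and below. The median member difference was 0.75, 1.46 and 1.40 on the log2 scale in proximal, mid and distal organoids. The summed levels of the mature colonocyte, goblet and enteroendocrine markers were higher and those of the crypt base markers lower with differentiation medium in each region as well, and their part in these differences was not tested. In bulk samples such as these, fewer cells of a type and less RNA per cell cannot be told apart.

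**Figure D1:**
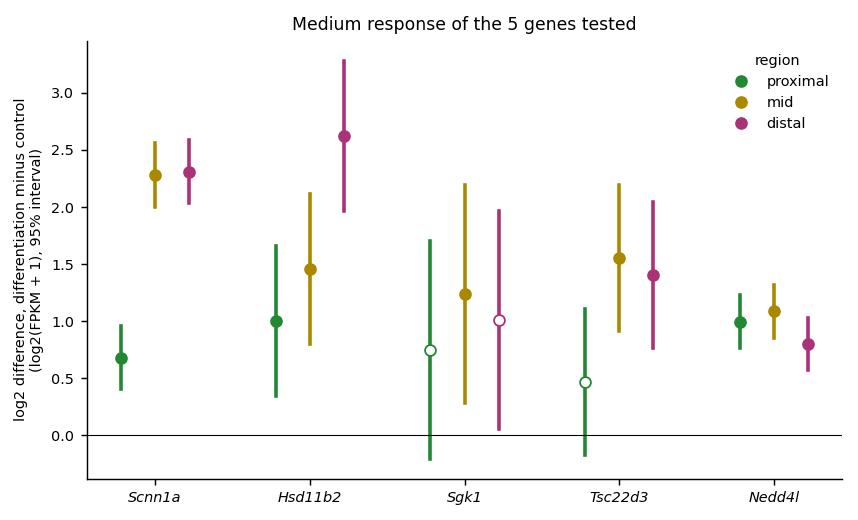
Log2 difference (differentiation minus control, on log2(FPKM + 1)) with its 95% interval for the 5 genes tested, by region (colour), with 3 libraries per group. Filled points passed the adjusted threshold of 0.05. Scnn1a stands at 0.68 in proximal and at 2.28 and 2.31 in mid and distal organoids, while the 3 Nedd4l points lie between 0.80 and 1.09.

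Scnn1a encodes the alpha subunit, without which the channel does not reach the cell surface (ENSMUSG00000030340, mm39 chromosome 6, 125297622 to 125321906, protein-coding). Its level was 11.3, 11.02 and 10.1 FPKM in proximal control libraries 1 to 3, 11.4, 9.37 and 11.2 FPKM in mid control, and 10.9, 10.98 and 10.9 FPKM in distal control. The 3 control groups overlapped, and the largest difference between 2 of their means was under the SD of the mid group (10.8 ± 0.614, 10.7 ± 1.13 and 10.9 ± 0.0475 FPKM, SD, n = 3). In differentiation medium the level was 19.8, 18.2 and 15.9 FPKM in proximal libraries, 54.1, 49.4 and 63.9 FPKM in mid, and 68.1, 47.9 and 60.3 FPKM in distal. Each differentiation library exceeded every control library of its region, and mid and distal differentiation libraries overlapped each other but not the proximal ones.

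The rise of Scnn1a was 0.68 ± 0.13 on the log2 scale in proximal organoids (SE, adjusted p = 0.000512), 2.28 ± 0.13 in mid (adjusted p = 4.19e-09) and 2.31 ± 0.13 in distal organoids (adjusted p = 4.77e-09). Scaled to summed reads, the rises were 0.38, 1.87 and 1.87, and each was still called. The response itself differed between regions. It was larger by 1.63 ± 0.18 in distal than in proximal organoids (adjusted p = 6.03e-05) and larger by 1.60 ± 0.18 in mid than in proximal (adjusted p = 6.94e-05), in comparisons where 8.24% and 12% of all tested genes were called and 4.16% and 5.62% had a larger response in the first-named region. Between distal and mid the responses differed by 0.03 (95% interval -0.36 to 0.42, adjusted p = 0.9997), where 0.031% of genes were called. Without proximal differentiation replicate 1 the distal-minus-proximal response difference was 1.70. Scnn1a levels in control medium therefore gave no order of the regions beyond their spread, with distal minus proximal at 0.01 (95% interval -0.26 to 0.29), whereas in differentiation medium distal exceeded proximal organoids by 1.65 ± 0.13 (adjusted p = 1.57e-07) and mid exceeded proximal by 1.58 ± 0.13 (adjusted p = 3.12e-07).

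Scnn1g and Scnn1b encode the gamma and beta subunits and lie next to each other on mm39 chromosome 7, Scnn1g at 121333702 to 121367698 (ENSMUSG00000000216) and Scnn1b at 121464261 to 121517737 (ENSMUSG00000030873). Both are on the plus strand, 96562 bases apart, with 0 protein-coding genes between them. Scnn1g gave 21, 126 and 97 reads (0.723, 2.55 and 2.35 FPKM) in distal differentiation libraries 1 to 3. It gave 4, 11 and 23 reads (0.0877, 0.231 and 0.466 FPKM) in mid differentiation libraries and 1 read in all 3 proximal differentiation libraries together. Control libraries together held 3 reads in proximal, 3 in mid and 6 in distal organoids, the 6 distal reads all in replicate 3. Distal differentiation libraries thus lay above all 15 others, and the mid differentiation group overlapped the distal control group but no other.

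The pooled Scnn1g reads per FPKM library size were 60.0 times higher in distal differentiation than in distal control libraries (95% counting interval 27.2 to 165) and 16.0 times higher in mid (5.07 to 81.0). In proximal organoids the ratio was 0.383 with an interval of 0.00730 to 4.77, so no difference was detectable at this depth. These intervals cover counting error only and not the spread between libraries. With no filter on low values, limma gave Scnn1g a distal rise of 1.40 ± 0.20 (adjusted p = 8.98e-05) and, in differentiation medium, a distal-minus-mid difference of 1.13 ± 0.20 (adjusted p = 0.0195). The mid rise was 0.30 ± 0.20 in that fit (adjusted p = 0.305). In voom fits on the recovered reads the distal rise was 6.50 ± 0.97 (adjusted p = 3.42e-05), the mid rise 3.84 ± 1.11 (adjusted p = 0.00881), and distal minus mid in differentiation medium 2.97 ± 0.72 (adjusted p = 0.0948). The distal response of Scnn1g exceeded the proximal by 1.42 ± 0.28 with no filter (adjusted p = 0.0117) and by 7.06 ± 1.62 with voom (adjusted p = 0.0239). Its mid-minus-proximal response passed in neither fit (adjusted p = 0.602 with no filter and 0.153 with voom). Such fitted values for a gene with libraries at 0 depend on the offset added to the counts.

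Scnn1b gave 10, 12 and 33 reads (0.391, 0.275 and 0.907 FPKM) in distal differentiation libraries and 3, 6 and 5 reads (0.0747, 0.143 and 0.115 FPKM) in mid differentiation libraries. It gave 0 reads in all 3 proximal differentiation libraries, which allows up to 0.0243 FPKM over the group. Distal control libraries held 1, 3 and 3 reads, and mid control libraries 2, 0 and 0. Pooled reads were 11.6 times higher in distal differentiation than in distal control libraries (95% counting interval 5.26 to 30.2) and 8.83 times higher in mid (2.03 to 80.1). In proximal organoids the direction was the opposite, with 35 reads in control medium, at least 10.1-fold higher than the 3 reads that a count of 0 allows over the group. Replicate 2 held 29 of those 35 reads and the other two libraries 3 each. With no filter, limma gave a distal rise of 0.52 ± 0.13 (adjusted p = 0.00746) and a proximal difference of -0.26 ± 0.13 (adjusted p = 0.190). In voom fits the proximal difference was -3.72 ± 0.89 (adjusted p = 0.00307). The annotated Scnn1b gene overlaps Cog7 on the opposite strand, and Cog7 reached 7.90 FPKM. Only whole gene spans were compared and not exons, so how many reads the overlap touches is unknown here. Whether counting used the strand is also unknown, so Scnn1b values are uncertain.

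**Figure D2:**
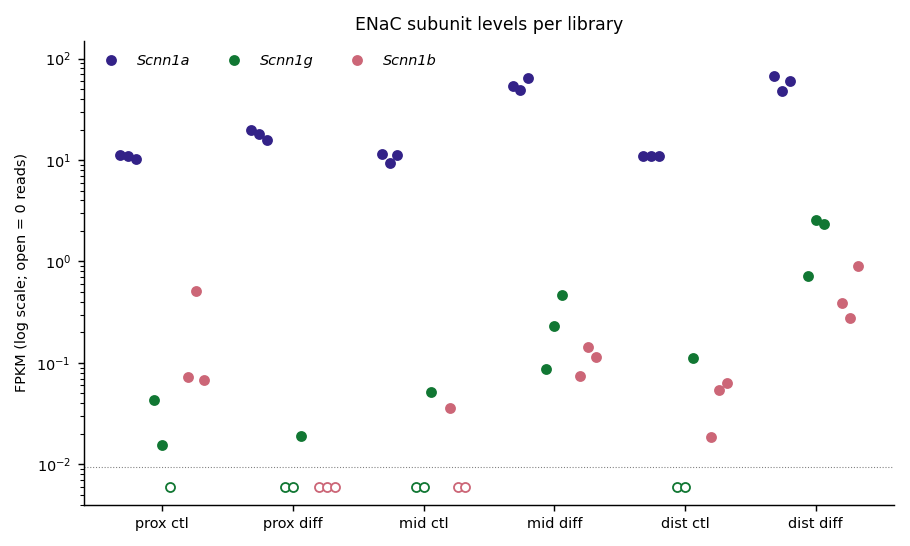
FPKM of the alpha (Scnn1a), gamma (Scnn1g) and beta (Scnn1b) subunit genes in each library on a log axis, by region and medium, with 1 point per library. Open points under the dotted line mark libraries with 0 reads and are placed there for display. The gap between alpha and the other two subunits narrows from mid to distal differentiation libraries, where Scnn1g reaches 0.723 to 2.55 FPKM.

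Per gene length, the alpha transcript exceeded the others in each of the 18 libraries. In distal differentiation libraries 1 to 3, Scnn1a was 94.2, 18.8 and 25.7 times Scnn1g, and 174, 174 and 66.5 times Scnn1b. In mid differentiation libraries it was 617, 214 and 137 times Scnn1g and 724, 346 and 555 times Scnn1b. The ranges of the 2 regions did not overlap for either ratio, although Scnn1a itself overlapped between them. Since both ratios are taken within a library, library scaling does not enter them, but the counts of 3 to 33 Scnn1b reads limit their precision.

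Hsd11b2 encodes the enzyme that inactivates glucocorticoids in aldosterone target cells (ENSMUSG00000031891, mm39 chromosome 8, 106245387 to 106250620, protein-coding). In control medium it was the 1 tested member of 5 that passed a test between regions. Proximal control libraries held 0.559, 0.277 and 0.422 FPKM (16, 11 and 13 reads), mid control 8.45, 7.61 and 9.35 FPKM, and distal control 2.78, 2.31 and 3.86 FPKM. None of these 3 groups overlapped, with mid the highest. In differentiation medium proximal libraries held 1.64, 1.65 and 2.27 FPKM, mid 29.4, 23.2 and 22.7 FPKM, and distal 46.4, 21.6 and 12.3 FPKM. The distal libraries spread on both sides of the mid ones, and all 3 proximal differentiation libraries lay below every distal control library.

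In control medium Hsd11b2 was higher in mid than in proximal organoids by 2.74 ± 0.31 (adjusted p = 1.90e-05, 13.3% of all tested genes called) and higher in distal than in proximal by 1.48 ± 0.31 (adjusted p = 0.00512, 10.5% called). Distal minus mid was -1.26 ± 0.31 and did not pass (adjusted p = 0.135), in a comparison where 0.326% of genes did. That call appeared when distal differentiation replicate 1 (adjusted p = 0.00779) or replicate 3 (adjusted p = 0.0263) was left out, which changed the shared estimate of spread and not the difference. In differentiation medium mid exceeded proximal organoids by 3.19 ± 0.31 (adjusted p = 1.72e-06, 29.4% called) and distal exceeded proximal by 3.10 ± 0.31 (adjusted p = 2.18e-06, 29.9% called). Distal minus mid was -0.10 there (95% interval -0.75 to 0.56), with 0.69% of genes called.

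The medium raised Hsd11b2 by 1.004 ± 0.309 in proximal (adjusted p = 0.0128), 1.46 ± 0.31 in mid (adjusted p = 0.000758) and 2.62 ± 0.31 in distal organoids (adjusted p = 4.89e-06). The proximal rise lost its call without proximal differentiation replicate 3 (0.90, adjusted p = 0.0507). The distal response exceeded the proximal by 1.62 ± 0.44 (adjusted p = 0.0329). This difference between responses depended on the offset of 1 added before taking logs, and the proximal control values of Hsd11b2 lie under that offset. With an offset of 0.1 it was 1.01 (adjusted p = 0.260), and with voom on recovered reads 0.75 (adjusted p = 0.741). It also lost its call when any of 8 libraries was left out in turn: the 3 proximal control libraries, proximal differentiation replicates 1 and 2, distal control replicates 1 and 2, and distal differentiation replicate 2 (adjusted p from 0.0569 to 0.0772).

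**Figure D3:**
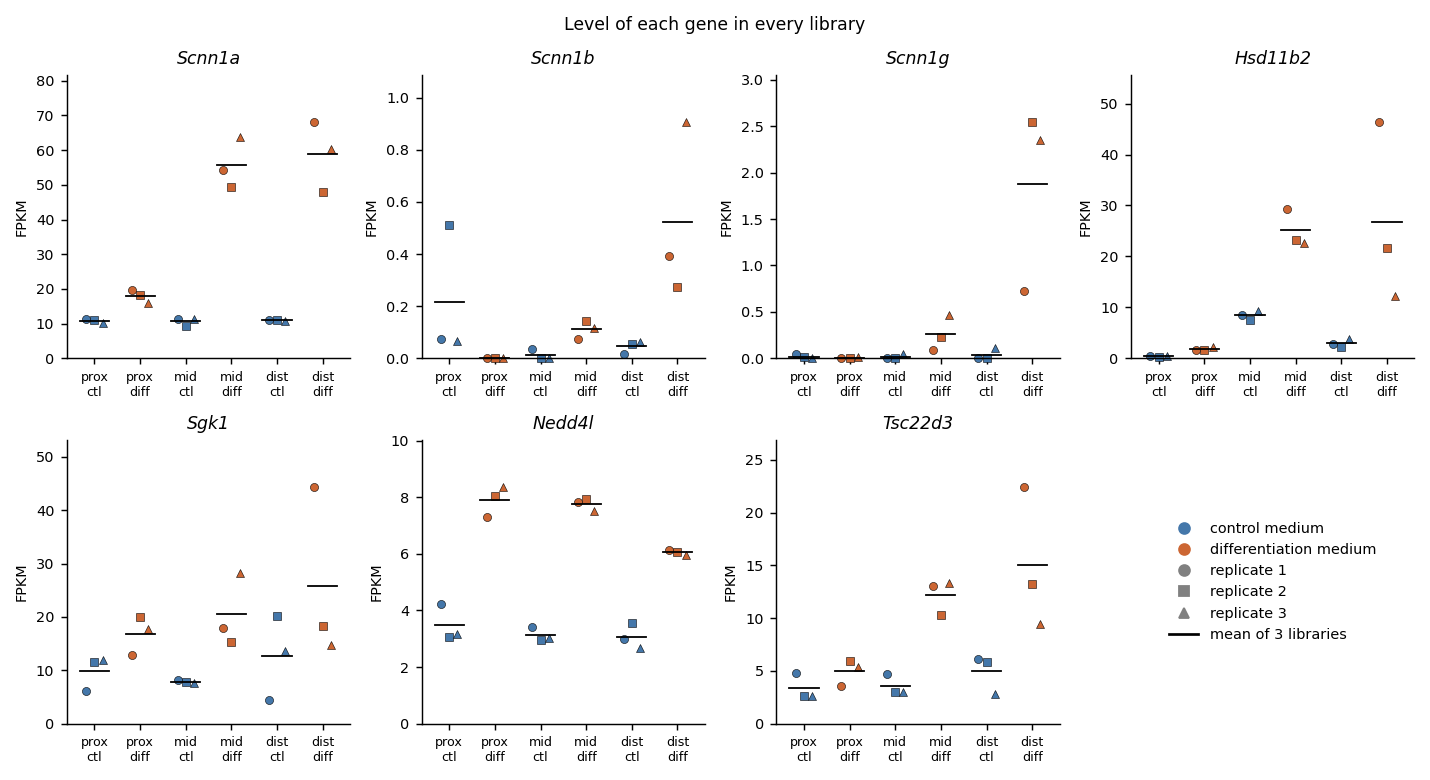
FPKM of the 7 genes in every library, with a linear axis from 0 in each panel, control medium in blue and differentiation medium in orange, symbols for replicates 1 to 3 and a bar at the mean of 3 libraries. Hsd11b2 is near 0 in proximal libraries of both media, and distal differentiation replicate 1 is the highest library of Hsd11b2 (46.4), Sgk1 (44.3) and Tsc22d3 (22.4).

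Sgk1, the kinase (ENSMUSG00000019970, mm39 chromosome 10, 21758083 to 21875802, protein-coding), varied widely within groups. Its level was 6.05, 11.5 and 12.0 FPKM in proximal control, 8.22, 7.74 and 7.56 FPKM in mid control, and 4.39, 20.1 and 13.7 FPKM in distal control libraries. In differentiation medium it was 12.9, 19.9 and 17.7 FPKM in proximal, 17.97, 15.2 and 28.3 FPKM in mid, and 44.3, 18.4 and 14.7 FPKM in distal libraries. Proximal and mid groups did not overlap between media, the distal groups did, and the 6 group means from 7.84 (mid control) to 25.8 FPKM (distal differentiation) formed an order in which each neighbouring pair overlapped. The coefficient of variation reached 62.2% in distal control and 62.7% in distal differentiation libraries.

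The rise of Sgk1 was 1.24 ± 0.45 in mid organoids and passed (adjusted p = 0.0250). It was 0.75 ± 0.45 in proximal (adjusted p = 0.170) and 1.01 ± 0.45 in distal organoids (adjusted p = 0.0601), which did not. The mid call was lost with no filter (adjusted p = 0.0608), with scaling to summed reads (0.83, adjusted p = 0.0935), and without mid control replicate 2 (0.0561) or 3 (0.0575) or mid differentiation replicate 3 (0.103). The distal difference passed without distal control replicate 2 (1.43, adjusted p = 0.0146) or distal differentiation replicate 3 (1.32, adjusted p = 0.0285). It was 0.44 without distal control replicate 1 (adjusted p = 0.348) and 0.55 without distal differentiation replicate 1 (adjusted p = 0.300). The proximal difference was 0.46 without proximal control replicate 1 (adjusted p = 0.456). The distal response exceeded the proximal by 0.27 with a 95% interval of -1.08 to 1.61, too wide to show likeness or difference.

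Nedd4l, the ubiquitin ligase that marks ENaC for removal (ENSMUSG00000024589, chromosome 18, protein-coding), rose in all 3 regions. Its level was 4.24, 3.06 and 3.16 FPKM in proximal control, 3.42, 2.96 and 3.04 FPKM in mid control, and 2.99, 3.56 and 2.67 FPKM in distal control libraries. In differentiation medium it was 7.31, 8.06 and 8.35 FPKM in proximal, 7.83, 7.95 and 7.53 FPKM in mid, and 6.14, 6.08 and 5.97 FPKM in distal libraries. In deposited FPKM no library of one medium overlapped with one of the other. Under scaling to summed reads, proximal control replicate 1 (5.04) lay above distal differentiation replicate 1 (4.65), with no overlap within a region. The rise was 0.996 ± 0.108 in proximal (adjusted p = 4.03e-06), 1.09 ± 0.11 in mid (adjusted p = 8.99e-07) and 0.80 ± 0.11 in distal organoids (adjusted p = 1.69e-05). With summed reads as the scale, the rises were 0.73, 0.73 and 0.43, and each was still called. The distal response was 0.20 smaller than the proximal, given as a difference of -0.20 (95% interval -0.52 to 0.13, adjusted p = 0.483).

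In differentiation medium Nedd4l was the 1 member that was lower in distal than in proximal organoids (-0.33 ± 0.11, adjusted p = 0.0292). All 3 distal libraries lay under all proximal and mid ones. The call was lost when only the 2 groups compared were fitted (adjusted p = 0.0999) and without proximal differentiation replicate 2 or 3 or any distal differentiation library (adjusted p from 0.0522 to 0.0946). Distal minus mid was -0.31 ± 0.11 (adjusted p = 0.330). Nedd4, the related ligase, was far more abundant per length and moved the other way, so that the ratio of Nedd4l to Nedd4 was 0.0357 to 0.0662 over the 9 control libraries and 0.125 to 0.238 over the 9 differentiation libraries.

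Tsc22d3 encodes GILZ (ENSMUSG00000031431, mm39 chromosome X, 139440277 to 139501408, minus strand, protein-coding). Its level was 4.84, 2.62 and 2.60 FPKM in proximal control, 4.72, 3.01 and 2.96 FPKM in mid control, and 6.15, 5.84 and 2.86 FPKM in distal control libraries. In differentiation medium it was 3.61, 5.94 and 5.34 FPKM in proximal, 13.1, 10.3 and 13.3 FPKM in mid, and 22.4, 13.2 and 9.43 FPKM in distal libraries. The media overlapped in proximal organoids and did not overlap in mid or distal ones. The rise was 1.55 ± 0.30 in mid (adjusted p = 0.000361) and 1.40 ± 0.30 in distal organoids (adjusted p = 0.000852). The proximal difference of 0.47 ± 0.30 did not pass (adjusted p = 0.199).

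In differentiation medium Tsc22d3 was higher in distal than in proximal organoids by 1.37 ± 0.30 (adjusted p = 0.00284) and higher in mid than in proximal by 1.16 ± 0.30 (adjusted p = 0.00841). The difference between responses did not pass the test over all genes, at 0.93 ± 0.42 for distal minus proximal (adjusted p = 0.204) and 1.08 ± 0.42 for mid minus proximal (adjusted p = 0.111). The latter passed when only those 4 groups were fitted (adjusted p = 0.0443).

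Across the 5 tested members, regions differed mainly in differentiation medium. Distal against proximal, 3 were higher and 1 lower in differentiation medium, where 15.6% of all tested genes were higher and 14.3% lower, and 1 was higher in control medium, where 5.57% of genes were higher. Mid against proximal, 3 were higher in differentiation medium (15.6% of genes higher) and 1 in control medium (7.99%). Distal against mid, 0 of 5 passed in either medium under limma, where 0.326% of all tested genes passed in control and 0.69% in differentiation medium. At such shares a count of 0 says little about these members. Before adjustment 1 member lay under 0.05 in control medium (Hsd11b2) and 1 in differentiation medium (Nedd4l). An F test over the responses of the 3 regions called 1 of 5 members, Scnn1a (adjusted p = 4.64e-05), against 9.59% of genes, and Hsd11b2 reached adjusted p = 0.0567.

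Distal differentiation replicate 1 had the highest level of Scnn1a, Hsd11b2, Sgk1 and Tsc22d3 in its group and the lowest of Scnn1g. It was also the library with the fewest reads (12827751) and the highest ratio of summed reads to FPKM library size (1.32). Scaled to summed reads its levels were 35.1 for Hsd11b2, 33.5 for Sgk1 and 16.97 for Tsc22d3, each still the highest of the group, and 0.547 for Scnn1g, still the lowest. Scnn1a lost its rank under that scaling, at 51.6 against 56.1 in replicate 3. Without it the distal rise was 2.20 for Scnn1a, 2.14 for Hsd11b2 (adjusted p = 2.82e-06), 1.09 for Tsc22d3 (adjusted p = 0.00583) and 0.79 for Nedd4l.

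The genes that surround the channel were read from 5 lists of 38 genes, all found, of which 34 passed the filter. These lists too were chosen with earlier results of these data known, so their counts are descriptions. With differentiation medium, proximal organoids had 18 genes higher and 4 lower, mid organoids 21 and 7, and distal organoids 22 and 7, with median differences of 0.51, 0.66 and 0.72. Of all tested genes, 27.6% were higher and 26.2% lower in the proximal comparison, 31.5% and 32% in the mid one, and 31.6% and 31.3% in the distal one. Scaled to summed reads these counts were 16 and 9, 16 and 9, and 19 and 9. That scaling put 18.5% of all tested genes higher and 40.1% lower for the proximal comparison, 19.2% against 46.6% for the mid one, and 18.6% against 47.3% for the distal one.

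Of the steroid receptors and converting enzymes 3 of 4 were tested, with 2 higher in each region and 1 lower in mid and distal organoids. Nr3c2, the mineralocorticoid receptor, rose from 2.64 ± 0.570 to 18.4 ± 5.10 FPKM in proximal (2.39 ± 0.18, adjusted p = 1.31e-07), from 5.52 ± 1.08 to 36.5 ± 1.65 in mid (2.53 ± 0.18) and from 4.02 ± 0.480 to 36.3 ± 3.74 in distal organoids (2.89 ± 0.18, adjusted p = 1.05e-08). The difference between its distal and proximal responses did not pass the test over all genes (0.50 ± 0.25, adjusted p = 0.253). Nr3c1, the glucocorticoid receptor, rose less, by 1.08, 0.98 and 0.73. The ratio of Nr3c2 to Nr3c1 per length went with this from 0.195 ± 0.0214 (control) to 0.610 ± 0.0725 (differentiation) for proximal libraries, from 0.514 ± 0.0499 to 1.66 ± 0.0628 for mid ones, and from 0.385 ± 0.0665 to 2.01 ± 0.0291 for distal ones. Mid and distal differentiation libraries were the 6 in which the mineralocorticoid receptor transcript exceeded the glucocorticoid receptor transcript. H6pd, which supplies the cofactor for the reverse enzyme HSD11B1, fell in mid (-0.84 ± 0.12) and distal (-1.06 ± 0.12) organoids, and Hsd11b1 itself did not pass the filter, with group means of at most 0.160 FPKM.

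Among 7 proteases that cleave and activate ENaC and their inhibitors, 4 were higher in proximal and 5 in mid and distal organoids, while 1 was lower in mid and distal. The protease Tmprss2 rose from 71.4 ± 5.34 to 196 ± 17.7 FPKM in mid and from 72.5 ± 12.9 to 232 ± 24.95 in distal organoids but was 59.9 ± 2.79 and 67.3 ± 3.35 in proximal ones, and its distal response exceeded the proximal by 1.51 ± 0.18 (adjusted p = 8.88e-05). Prss8, prostasin, was the gene called lower in deposited FPKM, by -0.73 ± 0.11 in mid and -0.51 ± 0.11 in distal organoids. Scaled to summed reads, Prss8 (-0.33, adjusted p = 0.00723) and H6pd (-0.40, adjusted p = 0.0167) were called lower in proximal organoids as well. On that scale 2 of these 7 proteases and inhibitors were lower in each region. Higher ones numbered 4 in proximal, 4 in mid and 5 in distal organoids. The inhibitors Spint1 (1.11, 1.55 and 1.47 in proximal, mid and distal) and Spint2 (1.15, 1.18 and 1.37) rose in all regions.

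Among 13 kinases, ligases and scaffolds around ENaC, 12 were tested, with 5 higher and 3 lower in proximal and 6 higher and 4 lower in mid and distal organoids. The counts of lower genes thus lay near the shares of all tested genes. Scaled to summed reads, 3 were higher and 4 lower in proximal, and 4 higher and 5 lower in mid and distal organoids. Which direction led in this list therefore depended on the scaling. Sgk2, a kinase related to SGK1, rose from 1.58 ± 0.282 to 22.7 ± 0.965 FPKM in proximal (3.20 ± 0.12), from 1.04 ± 0.185 to 54.0 ± 4.10 in mid (4.76 ± 0.12) and from 1.07 ± 0.261 to 39.7 ± 4.48 in distal organoids (4.30 ± 0.12). The ratio of Sgk2 to Sgk1 was 0.0424 to 0.315 in control and 0.927 to 3.27 in differentiation libraries. Cnksr3, an aldosterone-induced scaffold, rose by 1.86, 1.96 and 1.93. Usp2, a deubiquitylase that acts on ENaC, rose in mid (1.65 ± 0.26) and distal organoids (1.63 ± 0.26). It stood at 0.0654 ± 0.0358 and 0.145 ± 0.0168 FPKM in proximal control and differentiation libraries. Its distal response lay 1.52 ± 0.37 above the proximal (adjusted p = 0.0198), but the proximal levels lie under the offset of 1, which understates changes. Usp2 reached 1 FPKM in 5 of the 18 libraries, none of them proximal. It thus passed the filter only through mid or distal libraries, so its differences from proximal organoids are a description and not an independent test. Nedd4 (-0.58, -0.91 and -0.86) and the kinase Stk39 (-0.71, -1.10 and -1.09) fell in all 3 regions.

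Of 7 other steroid-regulated genes 6 were tested, with 3 higher in proximal, 3 in mid and 4 in distal organoids and 0 lower. Scaled to summed reads, 3 were higher and 1 lower in proximal organoids. On that scale 1 was higher in mid and 3 in distal organoids, with 0 lower in both. Fkbp5, a co-chaperone of steroid receptors that glucocorticoids induce, rose by 2.19, 2.60 and 3.07 and was highest in proximal differentiation libraries, where Tsc22d3 was lowest of the 3 regions. Fkbp5 stood at 37.9 ± 5.11 FPKM in proximal, 15.4 ± 0.488 in mid and 15.3 ± 11.6 in distal differentiation libraries, with distal minus proximal at -1.48 ± 0.34 (adjusted p = 0.00363). Fxyd4, a sodium pump modulator known as corticosteroid hormone-induced factor, stood at 0.132 ± 0.106 FPKM in proximal, 2.61 ± 0.778 in mid and 9.75 ± 1.02 in distal control libraries. In differentiation medium it was 0.0792 ± 0.0687, 2.95 ± 1.12 and 21.2 ± 8.71 FPKM, and distal exceeded mid organoids by 1.60 ± 0.24 in control (adjusted p = 0.00639) and 2.45 ± 0.24 in differentiation medium (adjusted p = 6.81e-05). Per1, a clock gene that aldosterone induces, rose by 0.92, 0.66 and 0.92, and Klf9, a glucocorticoid-induced transcription factor, in mid (0.68) and distal (0.50) organoids. Scaled to summed reads, the calls of Per1 in mid (0.30, adjusted p = 0.165) and of Klf9 in mid (0.27, adjusted p = 0.0695) and distal organoids (0.07, adjusted p = 0.648) were lost. Ndrg2, induced by aldosterone in the colon, rose in proximal organoids (1.37 ± 0.28) and stood at 82.9 ± 13.5 and 111 ± 25.1 FPKM in distal control and differentiation libraries (adjusted p = 0.217).

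Of 7 partners in sodium and potassium transport 6 were tested, with 4 higher in proximal, 5 in mid and distal, and 1 lower in each region. Atp1b1, the beta subunit of the sodium pump, rose in all 3 regions (2.10, 1.94 and 1.94 in proximal, mid and distal organoids). Slc9a3, the apical sodium/proton exchanger of electroneutral uptake, rose from 0.119 ± 0.0833 to 4.09 ± 1.56 FPKM in proximal, from 1.87 ± 0.691 to 116 ± 12.7 in mid and from 0.888 ± 1.09 to 31.4 ± 10.5 in distal organoids. It was lower in distal than in mid organoids in differentiation medium (-1.89 ± 0.32, adjusted p = 0.00951). Atp12a, the colonic proton/potassium pump, rose from 2.46 ± 0.845 to 108 ± 9.83 FPKM in mid and from 6.28 ± 3.90 to 339 ± 292 in distal organoids. In proximal organoids it stood at 0.0160 ± 0.0277 and 1.27 ± 0.804 FPKM (adjusted p = 0.0616). These proximal levels lie near or under the offset of 1, which understates changes.

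**Figure D4:**
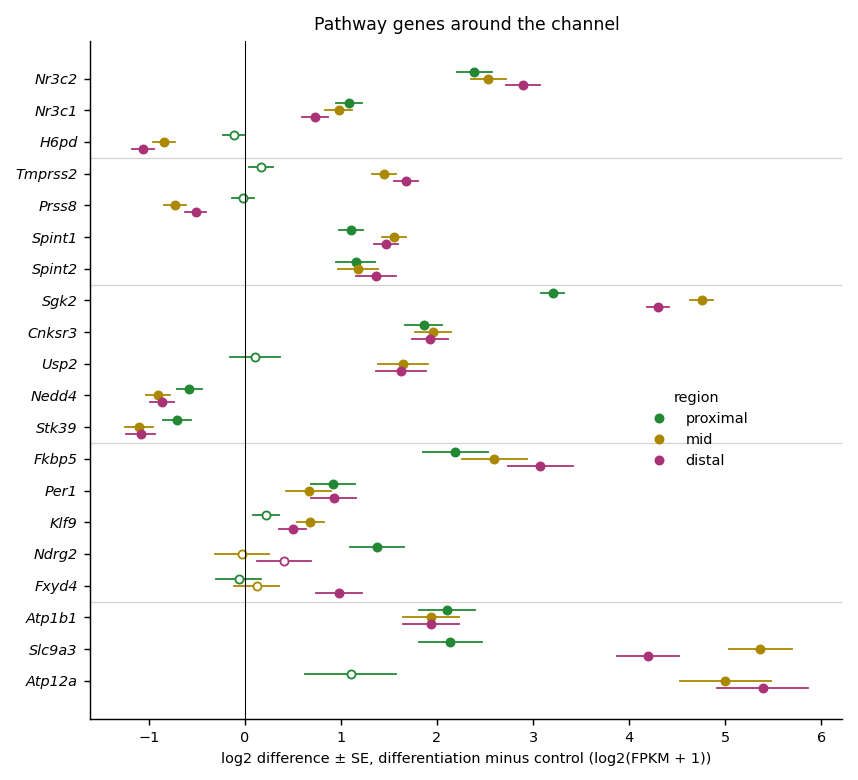
Log2 difference ± SE (differentiation minus control, on log2(FPKM + 1)) of the pathway genes named in the text by region (colour), 3 libraries per group, with grey lines between the 5 lists. Filled points passed the adjusted threshold of 0.05. Tmprss2, Usp2 and Atp12a have open points in proximal and filled points in mid and distal organoids, while Nr3c2, Cnksr3 and Atp1b1 have 3 filled points close together. The proximal levels of Usp2 and Atp12a lie near or under the offset of 1, which understates their changes.

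By Pearson correlation of log2(FPKM + 1) over the 18 libraries, the genes most like Scnn1a were Cyp2d9 (0.989), Cyp2d12 (0.985) and Tbc1d2 (0.984). Those most like Hsd11b2 were Steap4 (0.966), Klk1 (0.966) and Spink4 (0.962). Nedd4l was most like Prkaa2 (0.987), Rflnb (0.986) and Ugdh (0.984), and Tsc22d3 most like Pcx (0.973), mt-Co1 (0.963) and Plekhf2 (0.963). The closest genes to Sgk1 reached 0.887 (9330133O14Rik), 0.876 (Galnt11) and 0.873 (Ndst1), and to Scnn1g 0.872 (Samhd1), 0.844 (Slc34a2) and 0.844 (Cyp2d34-ps). For Scnn1b the closest reached 0.729 (Mir7052), 0.723 (Abhd12) and 0.721 (Zfp119b), too weak at its read counts to describe a pattern. The libraries share 2 media and 3 regions, so these values are a description of likeness, and Cyp2d genes have close copies among which reads may be split.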

How the data were processed

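RNA sequencing of 18 mouse colon organoid libraries was analysed, 3 in each of 6 groups of region and medium. Per the file headers, the authors deposited FPKM. Alignment tools in the submitters' processing notes are HISAT2 2.0.5 and featureCounts 1.5.0-p3, with mm39 as build. Annotation release and library scaling are not given in the sources used here. After multiplication by gene length, 100.0% of values were whole multiples of 1 step per library within 0.001 of a read, which gave the reads. The authors' 6 group-mean columns were not used. Genes with at least 1 FPKM in at least 3 libraries (12896) were fitted as log2(FPKM + 1), which understates changes of low genes, with limma 3.58.1 in R 4.3.3. The fit had 1 mean per group, trended empirical Bayes, 12 residual degrees of freedom, two-sided moderated tests and Benjamini-Hochberg adjustment over all genes tested, with a threshold of 0.05. The fit was tested on simulated data. Errors are SE of the fit beside log2 differences and SD over 3 libraries beside FPKM. A count of 0 allows 3 reads over a group, and read intervals are exact at 95%.

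The 7 genes and the pathway and marker lists were chosen with earlier results of these data known. All 7 members were named, with Nr3c2, Nr3c1, Prss8, Spint2, Sgk2, Nedd4, Usp2, Fkbp5, Per1, Fxyd4 and Atp1b1 and, per list, the 2 other genes that changed most in the distal medium comparison. Another gene that this rule names is not reported here. Hsd11b1 was named beside H6pd after its values were seen. The libraries were not treated as paired, since nothing states what the replicate numbers mark and not every pair with the same number correlated above 0.1. Alternatives were offsets, filters, scalings, fewer groups, a replicate block, each library left out, and limma-voom on recovered reads with at least 10 reads in all, the last chosen after seeing the data. Promoter windows came from RefSeq on GRCm38.p6, a build used for no other coordinate. Tables used Python 3.11.15, pandas 2.3.3, numpy 2.4.6 and scipy 1.17.1, and plots matplotlib 3.10.9.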

Additional observations from a re-analysis of the deposited data

Results flagged for a closer look

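The response of Scnn1a to differentiation medium differed between regions by the interaction term of the limma fit. It was larger in distal than in proximal organoids by 1.63 ± 0.18 on the log2 scale (SE, 3 libraries per group, adjusted p = 6.03e-05) and larger in mid than in proximal by 1.60 ± 0.18 (adjusted p = 6.94e-05). The response of Hsd11b2 was larger in distal than in proximal organoids by 1.62 ± 0.44 (adjusted p = 0.0329). That call was lost with an offset of 0.1 (1.01, adjusted p = 0.260), with voom on recovered reads (0.75, adjusted p = 0.741) and when any of 8 libraries was left out in turn, and the F test over the 3 regions gave Hsd11b2 adjusted p = 0.0567.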

How the results depend on the processing

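Over 26 settings, 18 of them leaving out 1 library, 1531 of 1560 member differences kept their side of the threshold. Of the others 24 lost the call, 5 gained one and 0 reversed. The 1531 include 36 that changed sign while called in neither setting. The counts of members called in the 3 medium comparisons and in distal against proximal moved by at most 1.5 times in all of them, the proximal medium count falling from 3 to 2 without proximal differentiation replicate 3. With voom on recovered reads, which tests Scnn1b and Scnn1g as well, members called were 2 for mid against proximal in control medium (main count 1), 5 in differentiation medium (3), 2 for the mid-minus-proximal response (1) and 3 for the F test (1). With no filter they were 1 for distal against mid in differentiation medium (0) and 2 for the F test. Both fits cover a different set of genes from the main fit, and the shares of all genes called in them are not given here. For the distal-minus-proximal response the count was 1 with an offset of 0.1 and 1 with only the groups compared (main count 2), and for mid minus proximal it was 2 with only the groups compared. Scnn1b and Scnn1g, which the main fit did not test, passed for the distal-minus-proximal response with voom and with no filter, while Hsd11b2 lost its call with voom. Leaving out 1 library gave 0 to 1 for distal against mid in control medium, 1 to 2 for the distal-minus-proximal response and 1 to 2 for the F test. The cause of these moves was not tested, beyond the 2 genes that voom and no filter add.

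The replicate number as a block changed no members count, for example 2 for the distal-minus-proximal response. Of 45 pairs of libraries with the same number 23 correlated above 0.1 in their deviations from the group means (median 0.107, against -0.0629 for other pairs), and 10 of 18 libraries correlated best with their own number, a hint from the data and not the design. Counts over all genes moved too. Distal against proximal in control medium called 1360 genes and 795 with only the groups compared, in differentiation medium 3856 and 2020, and for the response 1063 and 523 (576 with voom). Without proximal control replicate 2 the mid-minus-proximal count in control medium fell from 1711 to 936, its response from 1546 to 943 and the F test from 1237 to 689. Distal against mid called 42 genes in control medium (5 to 74 over all settings) and 89 in differentiation medium (7 to 164), and its response 4 (0 to 11). The edgeR and DESeq2 alternatives were not run, and limma-voom on the recovered reads was used in their place. Depth limits Scnn1b and Scnn1g, with 0 to 126 reads per library.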
